A study of Mus musculus with 9 samples.

Results

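The transcripts of the Wnt pathway were read in 9 RNA sequencing libraries of cultured mouse cells. The members are every row of the count table whose symbol is that of a Wnt ligand or a Frizzled receptor, together with named co-receptors, secreted inhibitors, ligand-processing genes, β-catenin and its destruction complex, R-spondin receptors and TCF/LEF factors. They number 58 of 47729 rows, namely 19 ligands, 10 Frizzleds, 5 other receptors, 9 secreted inhibitors, 2 ligand-processing genes, 5 genes of the R-spondin axis, 4 of the destruction complex and 4 TCF/LEF factors. Of the 58, 42 had enough counts to be tested. LTR (cultures 1, 2 and 3, genotype lgT/Ras) and NF1 (cultures 1, 2 and 3, genotype shp53, Nf1-/-, CDK4) are tumour cells made from neural stem cells, and NSC (cultures 1, 3 and 5) are primary neural stem cells of wild-type mice. All 9 cultures came from the subventricular zone, the stem cell layer beside the lateral ventricle, and were grown in the same stem cell medium for at most 10 passages. The series names its transformed lines GSC1 and GSC2 and lists 3 independent cultures of each cell type; the labels do not say which of them is which line, nor whether the cultures of a group were transformed separately.

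Wnts are secreted glycoproteins that carry a lipid. The acyltransferase Porcn attaches it and the carrier Wls takes the ligand to the cell surface, where it binds a Frizzled together with the co-receptor Lrp5 or Lrp6. Binding stops a complex of Axin, Apc and the kinase Gsk3 from marking β-catenin for destruction, and β-catenin then acts with TCF/LEF factors on target genes such as Axin2, itself an inhibitor of the pathway. Other Wnts act through Ror receptors or the planar cell polarity proteins, and in the adult subventricular zone Wnt signals bear on how stem cells divide and differentiate.

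Total counts per library ran from 28600479 in LTR 2 to 57231024 in NSC 3. Levels are CPM, counts scaled to library size, after scaling between libraries, and a level that rests on 3 counts lies between 0.0524 CPM (NSC 3) and 0.105 CPM (LTR 2) of the total. Intervals and floors cover counting error only. The genes that the NF1 label names were checked first. Trp53, the target of shp53, measured 217, 151 and 221 CPM in NF1 1, 2 and 3, against 107, 114 and 101 CPM in NSC 1, 3 and 5, so the transcript was not below its wild-type level in the libraries labelled NF1, and NF1 is used below as the name of those libraries. Nf1 measured 59, 97.2 and 40.1 CPM in NF1 1, 2 and 3, against 109.6, 82.5 and 114 CPM in NSC 1, 3 and 5, and Cdk4 795, 393 and 1124 CPM in NF1 1, 2 and 3, against 334, 456 and 325 CPM in NSC 1, 3 and 5. In LTR 1, 2 and 3, Nf1 measured 80, 40.3 and 58 CPM and Cdk4 1015, 935 and 1020 CPM, so LTR overlapped NF1 for both genes. Against NSC, Nf1 did not pass in LTR (edgeR adjusted p = 0.107) or NF1 (0.205). Cdk4 was called higher in LTR (edgeR adjusted p = 0.0135) and did not pass in NF1 (0.053). NF1 2 stood apart from NF1 1 and NF1 3 and nearer to NSC: the radial glial gene Fabp7 had 4.96, 343 and 1.74 CPM in NF1 1, 2 and 3, against 2364 to 4295 CPM in NSC. The stem cell marker Sox2 lay between 179 and 276 CPM in LTR, 259 and 331 CPM in NF1, and 307 and 358 CPM in NSC. The summed level of 8 mural cell and fibroblast markers was 20.5 to 157 CPM in LTR, 5.8 to 10.7 CPM in NF1, and 2026, 304 and 2547 CPM in NSC 1, 3 and 5, with Acta2, Tagln and Col1a1 as the main contributors in NSC. In LTR 1, 2 and 3 the sum was mostly Col3a1, at 152, 30.4 and 16.4 CPM, a gene that ran the other way, with 1.15 to 8.12 CPM in NF1 and 0.181 to 1.75 CPM in NSC, and was called higher in LTR; Lum and Dcn were at or below 0.106 CPM everywhere. Foxj1, the regulator of motile cilia in ependymal cells, had at most 5.63 CPM in LTR and NF1 and 99.9 to 206 CPM in NSC. The rest of the 6 ependymal genes were scarce in NSC as well. Rsph1 had 2.53 to 12.0 CPM there, and Ccdc153, Tmem212, Dnah11 and Pifo stayed at or below 1.26 CPM in every library. Of the 3 tested, all 3 were called lower in LTR and only Foxj1 in NF1. The 7 identifiers for microglial and myeloid genes summed to 2.92 CPM or less, and the defining endothelial gene Cldn5 had no count. Of 6 endothelial genes 4 were tested, and Flt1 and Cdh5 were called higher in both tumour groups. Flt1 had 28.3 to 35.9 CPM in LTR, 23.3 to 155 CPM in NF1, and 2.36 to 6.62 CPM in NSC. The 6 summed to 29.4 to 39.0 CPM in LTR, 24.5 to 163 CPM in NF1, and 6.49 to 8.10 CPM in NSC. In LTR and NF1 that sum was mostly Flt1. Cdh5 was scarce, with 0.623 to 1.28 CPM in LTR, 0.956 to 1.83 CPM in NF1, and 0.0541 to 0.322 CPM in NSC. Kdr and Tek did not rise with Flt1 in LTR. Kdr had 0.297, 0.496 and 1.40 CPM in LTR 1, 2 and 3, against 2.22, 1.07 and 3.00 CPM in NSC 1, 3 and 5. Tek had at most 0.267 CPM in LTR and at least 0.271 CPM in NSC. In these cultures, fewer cells of a type and less RNA per cell cannot be told apart. The file headers give 1 lane number to all NSC libraries and another to all LTR and NF1 libraries, and the effects of lane and of cell type cannot be told apart.

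Most of the tested Wnt pathway members were lower in LTR than in NSC. Of 42 members, 5 were higher (Dkk2, Lef1, Axin1, Wls and Tcf7), 24 were lower and 13 did not pass the edgeR quasi-likelihood test at an adjusted p under 0.05. Called members thus made up 69%, where 35.9% of all 15696 genes tested were called (14.9% higher and 20.9% lower). Leaving out LTR 3 left 15 lower members, and the higher members numbered 3 without NSC 1. The 42 members had a median log2 fold change of -1.25, against -0.06 over all genes tested. All 3 LTR libraries lay above all 3 NSC libraries for 7 members and below them for 27, and the groups overlapped for 8; over all genes the groups did not overlap for 59% (26.9% above and 32% below).

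In NF1 against NSC, 4 of the 42 members were higher (Dkk2, Lef1, Wnt7b and Lgr6), 17 were lower and 21 did not pass. The called share was 50%, where 23.1% of all genes tested were called (10.1% higher and 13.1% lower), and the median log2 fold change was -0.93, against 0.00 over all genes. In NF1, the lower members numbered 8 without NF1 1, 9 without NSC 1, 10 without NSC 5 and 27 without NF1 2, and the higher ones numbered 1 without NSC 1 or NSC 5 and 2 without NF1 1. The NF1 libraries all lay above NSC for 6 members and all below for 22, and overlapped NSC for 14; over all genes the groups did not overlap for 42.3% (18.7% above and 23.7% below). The 2 comparisons share the NSC libraries. Dkk2 and Lef1 were called higher in both and 16 members were called lower in both: Wnt2b, Wnt4, Wnt7a, Fzd2, Fzd7, Fzd9, Lrp6, Ror1, Sfrp1, Dkk3, Porcn, Lgr4, Apc, Axin2, Tcf7l1 and Tcf7l2. Sfrp2, Lrp5, Ctnnb1, Fzd3, Fzd5, Fzd8, Fzd10 and Wnt5a were called lower in LTR alone and Ror2 in NF1 alone; whether these differ between the tumour groups was tested directly and is given below. These counts describe the members that passed the filter on low counts, and the filter itself favours some of them. Of the 42 members, 8 reached it in all 3 libraries of NSC alone (Wnt2b, Wnt4, Wnt7a, Fzd10, Sfrp2, Frzb, Dkk3 and Rnf43) and Lef1 in all 3 of LTR alone, so that they entered the test through the group in which they were high. These 9 hold 1 of the higher and 6 of the lower members in LTR, and 1 of the higher and 4 of the lower members in NF1. Dkk2 likewise entered through LTR and NF1, with no NSC library at the filter, and Ror2 through LTR and NSC, with no NF1 library at it.

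**Figure D1:**
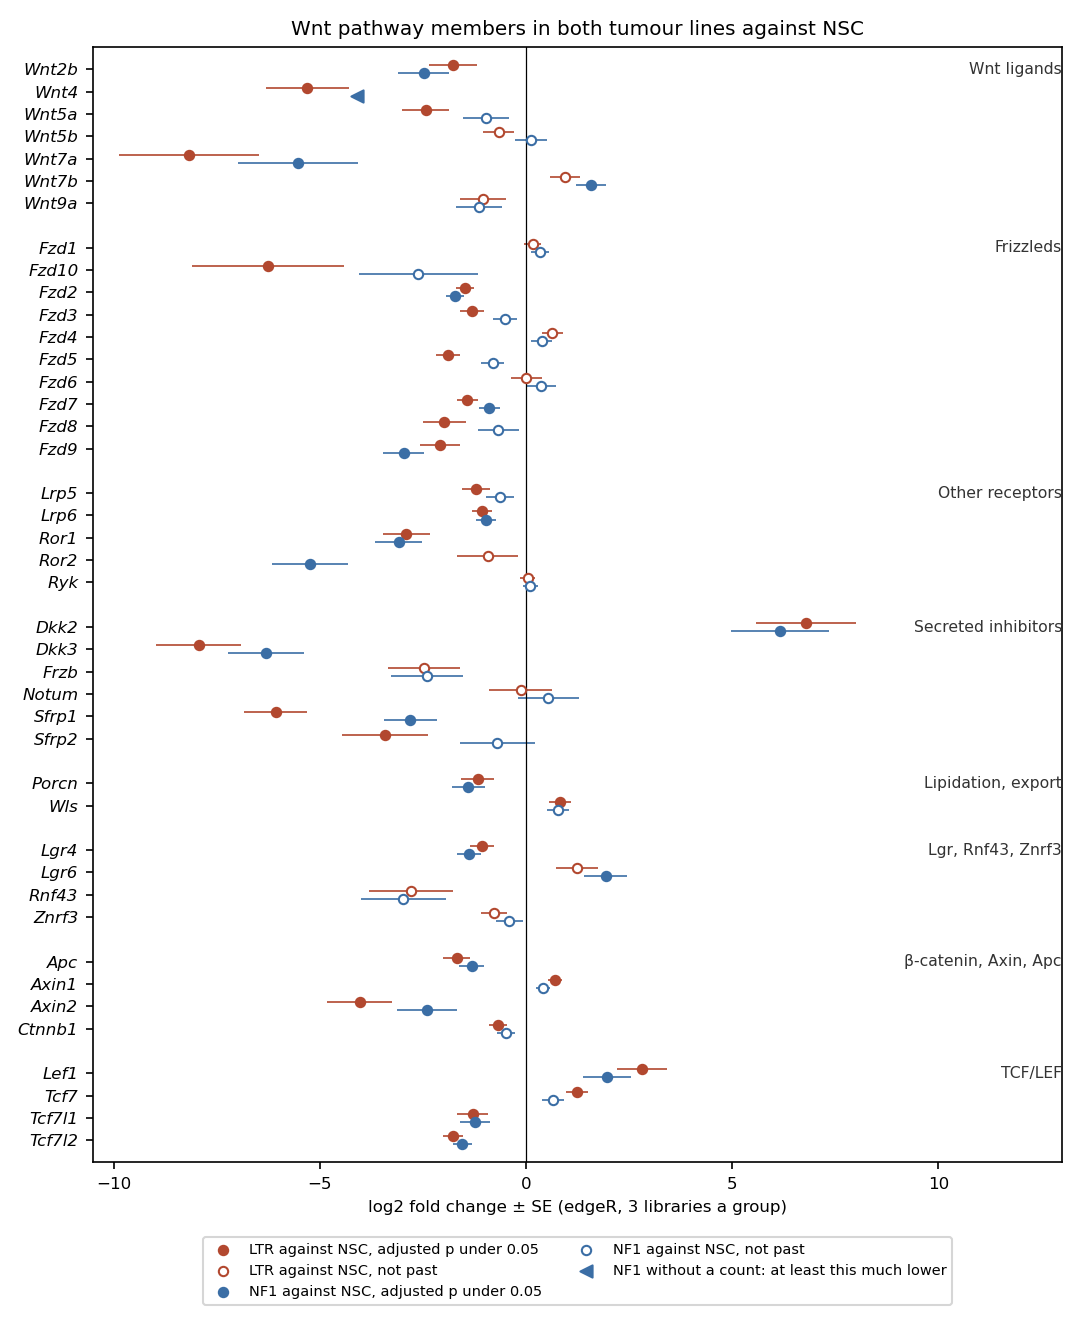
log2 fold change (x axis, ± SE, 3 libraries a group) of each tested member in LTR against NSC (red) and NF1 against NSC (blue), ordered by role. Filled points passed an adjusted p of 0.05 and open points did not, and the triangle marks Wnt4 in NF1, which had no count there and is drawn at its lower bound. Most points lie left of 0, while Dkk2 lies far to the right in both comparisons.

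Among the ligands, Wnt7b was the predominant transcript and Wnt7a was nearly lost in both tumour groups. Of 19 ligand genes 7 were tested: 4 were lower and none higher in LTR, and 3 were lower and 1 higher in NF1. That is 57.1% called in each, where 35.9% of all genes were called in LTR and 23.1% in NF1. Wnt2b, Wnt4 and Wnt7a, which are among the lower ligands in both, entered the test through their NSC levels. Here the lower ligands in NF1 numbered 1 without NF1 1, NSC 1 or NSC 5. Wnt7b (ENSMUSG00000022382, GRCm38 chromosome 15, 85535437 to 85582473), a ligand known for guiding blood vessel growth into the brain, measured 307, 294 and 346 CPM in LTR 1, 2 and 3 and 421, 737 and 308 CPM in NF1 1, 2 and 3. Wnt7b in NSC 1, 3 and 5 was at 154, 232 and 105 CPM. Every LTR and NF1 library lay above every NSC library, with the lowest level in NSC 5 and the highest in NF1 2. The rise was called in NF1 (log2 fold change 1.58 ± 0.37, adjusted p = 0.0159, a 2.98-fold difference), and LTR did not pass (0.95 ± 0.36, adjusted p = 0.0677). The Wnt7b call was lost without NSC 1 or NSC 5 (adjusted p 0.0599 to 0.0634), with adjusted p 0.000456 to 0.12 over all alternatives. In LTR it passed without NF1 2 (adjusted p = 0.0201, and 0.00173 to 0.307 over the alternatives). Of the exon bases of Wnt7b, 6.61% overlap another gene, and the library kit does not keep the strand.

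Wnt7a (ENSMUSG00000030093, GRCm38 chromosome 6, 91363981 to 91411363), a close relative of Wnt7b that signals through β-catenin in neural progenitors, measured 0.148, 0.305 and 0 CPM in LTR 1, 2 and 3 and 0.029, 2.72 and 0 CPM in NF1 1, 2 and 3. Wnt7a in NSC 1, 3 and 5 was at 47.4, 43.1 and 37 CPM. All 3 NSC libraries lay far above the rest, and among the tumour libraries only NF1 2 exceeded 1 CPM. Wnt7a fell in LTR (log2 fold change -8.17 ± 1.70, adjusted p = 0.00715) and in NF1 (-5.53 ± 1.45, adjusted p = 0.0248). Without NF1 2 the NF1 difference was -11.11 (-8.38 with limma-voom and all libraries), and the LTR difference was -8.98 without LTR 2 and -7.43 without LTR 3. The Wnt7a call in NF1 was lost without NF1 1, NSC 1 or NSC 5 (adjusted p 0.0587 to 0.0695), with adjusted p 8.56e-05 to 0.0695 over all alternatives. Wnt5a (ENSMUSG00000021994, GRCm38 chromosome 14, 28504750 to 28527448), the typical ligand of the Ror receptors, measured 4.39, 5.04 and 3.17 CPM in LTR 1, 2 and 3 and 7.91, 22.7 and 3.96 CPM in NF1 1, 2 and 3. Wnt5a in NSC 1, 3 and 5 was at 27.4, 18.7 and 21.6 CPM. LTR lay below NSC throughout, while NF1 2 lay within the NSC range and NF1 1 and NF1 3 below it. Wnt5a fell in LTR (log2 fold change -2.43 ± 0.57, adjusted p = 0.0115) and did not pass in NF1 (-0.97 ± 0.55, adjusted p = 0.219, and -1.91 without NF1 2 at an adjusted p of 0.00373, with 0.00329 to 0.441 over the alternatives). Wnt5b, the most abundant ligand that passed in neither comparison, measured 11.3, 17 and 17.3 CPM in LTR 1, 2 and 3 and 31, 30.00 and 17.1 CPM in NF1 1, 2 and 3. Wnt5b in NSC 1, 3 and 5 was at 34.2, 13.2 and 24.8 CPM. The groups overlapped (-0.66 ± 0.38, adjusted p = 0.195 in LTR; 0.12 ± 0.38, adjusted p = 0.844 in NF1), and within NSC the level was lowest in NSC 3.

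The other tested ligands were scarce. Wnt2b measured 0.148 to 0.269 CPM in LTR, 0.0341 to 0.192 CPM in NF1, and 0.541 to 0.724 CPM in NSC, and was called lower in both (LTR -1.77 ± 0.59, adjusted p = 0.0434; NF1 -2.48 ± 0.62, adjusted p = 0.021). The Wnt2b call in LTR was lost without LTR 1, LTR 2, LTR 3, NF1 1, NSC 1, NSC 3 or NSC 5 (adjusted p 0.0693 to 0.138) and with no filter on low counts or DESeq2 (adjusted p 0.053 to 0.112), with adjusted p 0.0183 to 0.159 over all alternatives. The Wnt2b call in NF1 was lost without NF1 1, NF1 3, NSC 1 or NSC 5 (adjusted p 0.0611 to 0.0787), with adjusted p 0.00848 to 0.11 over all alternatives. Wnt4 had 1 count over the LTR libraries and none over the NF1 libraries, against 70 counts over the NSC libraries. Its level was therefore 50.1-fold lower in LTR (exact 95% counting interval 8.71 to 2010) and at least 17-fold lower in NF1, taking 3 counts over the group as the floor. Wnt9a measured 2.06 to 3.11 CPM in LTR, 1.91 to 2.90 CPM in NF1, and 6.59, 1.68 and 8.61 CPM in NSC 1, 3 and 5, and did not pass. NSC 1 and NSC 5 held the high values, as they did for the mural cell and fibroblast markers, whose part in the result was not tested. The 12 untested ligands stayed at or below 1.10 CPM in every library. Wnt2 was the highest of them, with 33, 6 and 41 counts in NSC 1, 3 and 5. Wnt3a had no count in any library, and Wnt1, Wnt8b, Wnt9b and Wnt16 had at most 3.

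Per kilobase of exon, where genes can be set side by side, Wnt7b made up 88.1% to 91.4% of the summed ligand level in LTR, 86.3% to 90.3% in NF1, and 48%, 68.4% and 43.9% in NSC 1, 3 and 5. Wnt7a held at most 0.141% in LTR and 0.515% in NF1, against 19.6% to 23.9% in NSC. The summed ligand level was 68.0 to 78.2 CPM per kilobase in LTR, 70.7 to 167 in NF1, and 48.8 to 69.4 in NSC, so that LTR overlapped NSC and NF1 lay above it.

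**Figure D2:**
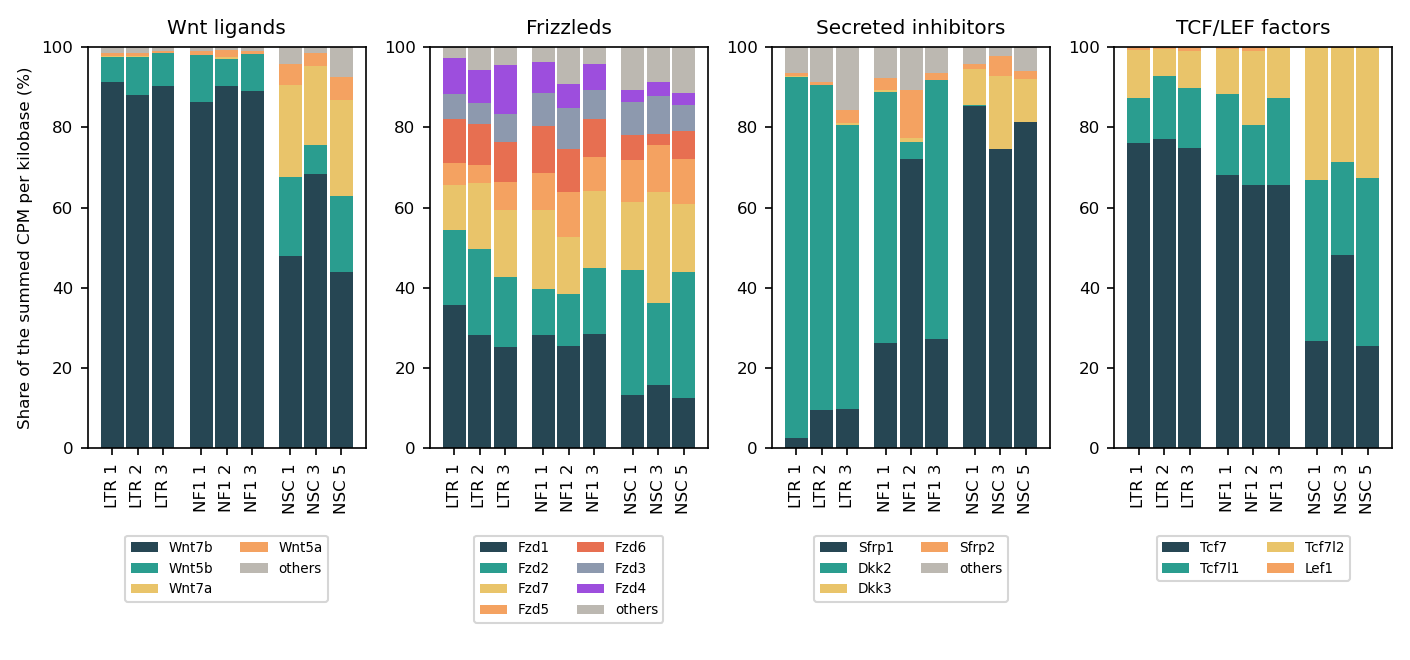
Share (y axis, %) of each gene in the summed CPM per kilobase of exon of its family, for every library (x axis): Wnt ligands, Frizzleds, secreted inhibitors and TCF/LEF factors. Wnt7b fills 86.3% or more of the ligand bar in each LTR and NF1 library, and Sfrp1 leads the inhibitors in NSC and in NF1 2.

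The Frizzled receptors split into 7 that fell in LTR and 3 that did not pass (Fzd1, Fzd4 and Fzd6). In NF1, Fzd2, Fzd7 and Fzd9 fell and 7 did not pass, and no Frizzled was called higher. Called Frizzleds made up 70% in LTR and 30% in NF1, where 35.9% and 23.1% of all genes were called. The NF1 share was thus near that of all genes called in either direction. All called Frizzleds were lower, where 20.9% of all genes were lower in LTR and 13.1% in NF1. All 10 were tested, with a median log2 fold change of -1.45 in LTR and -0.74 in NF1; those lower in NF1 numbered 7 without NF1 2. Fzd2 (ENSMUSG00000050288, GRCm38 chromosome 11, 102604396 to 102608058), the most abundant Frizzled per kilobase in NSC 1 and NSC 5, measured 31.4, 34.6 and 31.2 CPM in LTR 1, 2 and 3 and 24.3, 32.7 and 26 CPM in NF1 1, 2 and 3. Fzd2 in NSC 1, 3 and 5 was at 100.3, 66.2 and 104 CPM. No tumour library exceeded 34.6 CPM and no NSC library was under 66.2 CPM. Fzd2 fell in LTR (log2 fold change -1.48 ± 0.22, adjusted p = 0.00203) and in NF1 (-1.71 ± 0.22, adjusted p = 0.00188), the smallest adjusted p of any Frizzled in both comparisons.

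Fzd7 (ENSMUSG00000041075, GRCm38 chromosome 1, 59482424 to 59486955), the leading Frizzled per kilobase in NSC 3, measured 23.5, 32.2 and 36.8 CPM in LTR 1, 2 and 3 and 51.4, 44.4 and 37.9 CPM in NF1 1, 2 and 3. Fzd7 in NSC 1, 3 and 5 was at 67.5, 110.1 and 69.8 CPM. Every LTR and NF1 library lay below every NSC library, and all NF1 libraries lay above all LTR libraries. Fzd7 fell in LTR (log2 fold change -1.42 ± 0.26, adjusted p = 0.00442) and in NF1 (-0.89 ± 0.26, adjusted p = 0.0361). The Fzd7 call in NF1 was lost without LTR 2, LTR 3, NF1 1, NF1 3, NSC 1, NSC 3 or NSC 5 (adjusted p 0.0586 to 0.149) and with a fit of only the 6 libraries compared or both NF1 2 and NSC 3 left out (adjusted p 0.0729 to 0.0916), with adjusted p 0.0105 to 0.149 over all alternatives. Fzd9 (ENSMUSG00000049551, GRCm38 chromosome 5, 135248938 to 135251230) measured 0.978, 1.83 and 2.78 CPM in LTR 1, 2 and 3 and 0.725, 1.41 and 0.921 CPM in NF1 1, 2 and 3. Fzd9 in NSC 1, 3 and 5 was at 7.57, 6.19 and 10.03 CPM. It was low in all tumour libraries, without overlap, and fell in LTR (-2.09 ± 0.48, adjusted p = 0.0104) and in NF1 (-2.96 ± 0.50, adjusted p = 0.00447). Fzd3 (ENSMUSG00000007989, GRCm38 chromosome 14, 65192449 to 65262463), a Frizzled of axon guidance and planar polarity, measured 36.7, 30.2 and 42.1 CPM in LTR 1, 2 and 3 and 60.2, 90.2 and 40.04 CPM in NF1 1, 2 and 3. Fzd3 in NSC 1, 3 and 5 was at 89.9, 107 and 73.2 CPM. LTR lay below NSC throughout and NF1 2 lay within the NSC range; the fall was called in LTR (-1.31 ± 0.30, adjusted p = 0.0102) and not in NF1 (-0.51 ± 0.29, adjusted p = 0.235).

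Fzd5 (ENSMUSG00000045005, GRCm38 chromosome 1, 64730558 to 64737751) measured 17.5, 13.9 and 23.7 CPM in LTR 1, 2 and 3 and 37.7, 53.4 and 25.7 CPM in NF1 1, 2 and 3. Fzd5 in NSC 1, 3 and 5 was at 63, 70.6 and 71 CPM. The groups stood in 3 separate ranges, LTR lowest, NF1 between and NSC highest. The fall passed in LTR (-1.89 ± 0.30, adjusted p = 0.00241) and not in NF1 (-0.81 ± 0.29, adjusted p = 0.0716, and 0.0105 on leaving out NF1 2, with 0.0105 to 0.23 over the alternatives). Fzd8 (ENSMUSG00000036904, GRCm38 chromosome 18, 9212163 to 9218136) measured 5.16, 10.3 and 5.37 CPM in LTR 1, 2 and 3 and 10.9, 31.9 and 8.7 CPM in NF1 1, 2 and 3. Fzd8 in NSC 1, 3 and 5 was at 29.99, 20.2 and 31.7 CPM. NF1 2 was just above the highest NSC library, whereas NF1 1 and NF1 3 lay below NSC with LTR. Fzd8 fell in LTR (-1.98 ± 0.52, adjusted p = 0.0175) and did not pass in NF1 (-0.67 ± 0.50, adjusted p = 0.352, and -1.46 without NF1 2 at an adjusted p of 0.0116, with 0.00642 to 0.643 over the alternatives). The Fzd8 call in LTR was lost without LTR 1, LTR 3, NSC 1 or NSC 5 (adjusted p 0.0513 to 0.0675), with adjusted p 0.000764 to 0.0675 over all alternatives. Fzd10 reached at most 0.0763 CPM in LTR and 2.28 to 5.31 CPM in NSC, and in NF1 only NF1 2 had counts, at 1.76 CPM; it was called lower in LTR (-6.25 ± 1.84, adjusted p = 0.027). The Fzd10 call was lost without LTR 1, LTR 2, LTR 3, NSC 1, NSC 3 or NSC 5 (adjusted p 0.05 to 0.0809), with adjusted p 0.000467 to 0.0809 over all alternatives.

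Fzd1, the most abundant Frizzled that passed in neither comparison, measured 69.5, 51.8 and 51.5 CPM in LTR 1, 2 and 3 and 68.9, 74.1 and 52.2 CPM in NF1 1, 2 and 3. Fzd1 in NSC 1, 3 and 5 was at 48.6, 57.9 and 48.1 CPM. The groups overlapped, with differences of 0.16 ± 0.21, adjusted p = 0.561 in LTR and 0.34 ± 0.21, adjusted p = 0.257 in NF1. Fzd1 led the family per kilobase in every LTR and NF1 library, at 25.2% to 35.8% of the summed Frizzled level in LTR, 25.5% to 28.6% in NF1, and 12.6% to 15.7% in NSC. That sum was 43.7 to 48.6 CPM per kilobase in LTR, 43.5 to 69.2 in NF1, and 87.7 to 90.9 in NSC, without overlap between NSC and the others. Fzd4 measured 23.7 to 40.3 CPM in LTR, 18.6 to 30.6 CPM in NF1, and 18.6 to 20.5 CPM in NSC (0.64 ± 0.26, adjusted p = 0.0846 in LTR), and Fzd6 had 11.2 CPM in NSC 3 beside 27.0 and 30.9 CPM in NSC 1 and NSC 5.

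**Figure D3:**
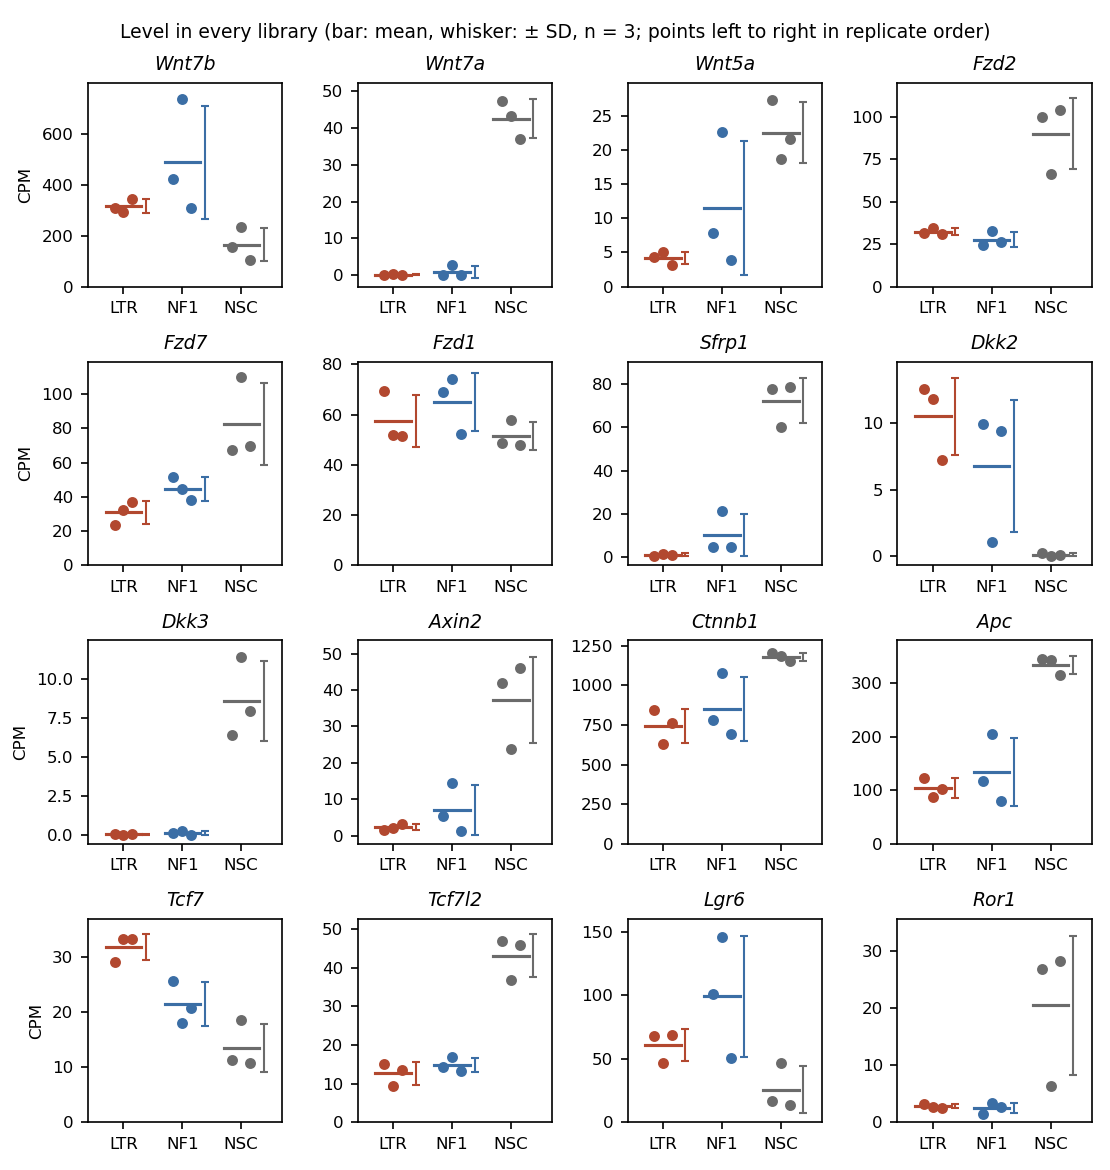
Level (y axis, CPM) of 16 members in each library, with LTR, NF1 and NSC from left to right, the horizontal line at the group mean and the whisker at ± SD (n = 3). Points of a group run from its lowest to its highest replicate number. The middle NF1 point is NF1 2, which lies toward NSC for Wnt5a, Sfrp1, Axin2 and Apc and away from NSC for Wnt7b and Lgr6.

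Of 5 co-receptors and other Wnt receptors, 3 fell in LTR (Lrp5, Lrp6 and Ror1) and 3 in NF1 (Lrp6, Ror1 and Ror2), and none was called higher. Called receptors made up 60% in each comparison, where 35.9% of all genes were called in LTR and 23.1% in NF1. In LTR, the lower ones numbered 1 without LTR 3. Lrp6 (ENSMUSG00000030201, GRCm38 chromosome 6, 134446476 to 134566965), the main β-catenin co-receptor, measured 60.01, 44.2 and 49.9 CPM in LTR 1, 2 and 3 and 53.3, 72.2 and 38.7 CPM in NF1 1, 2 and 3. Lrp6 in NSC 1, 3 and 5 was at 113, 88.5 and 121 CPM. All tumour libraries lay below all NSC libraries, NF1 2 being the nearest, and Lrp6 fell in LTR (log2 fold change -1.07 ± 0.25, adjusted p = 0.0119) and in NF1 (-0.97 ± 0.25, adjusted p = 0.0237). The Lrp6 call in LTR was lost without LTR 3 (adjusted p = 0.052), with adjusted p 0.000526 to 0.052 over all alternatives. The Lrp6 call in NF1 was lost without NF1 1, NSC 1 or NSC 5 (adjusted p 0.0786 to 0.086) and with a fit of only the 6 libraries compared (adjusted p = 0.0507), with adjusted p 0.00141 to 0.0893 over all alternatives. Its relative Lrp5 (ENSMUSG00000024913, GRCm38 chromosome 19, 3584828 to 3686564) measured 27.5, 25.3 and 29.4 CPM in LTR 1, 2 and 3 and 48.9, 54.2 and 19.6 CPM in NF1 1, 2 and 3. Lrp5 in NSC 1, 3 and 5 was at 65, 67 and 58.4 CPM. It was lower than NSC in every tumour library, but passed in LTR (-1.21 ± 0.33, adjusted p = 0.02) and not in NF1 (-0.63 ± 0.33, adjusted p = 0.183). The Lrp5 call in LTR was lost without LTR 1, LTR 2, LTR 3, NSC 1 or NSC 3 (adjusted p 0.0543 to 0.0726), with adjusted p 0.000917 to 0.0726 over all alternatives.

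Ror1 (ENSMUSG00000035305, GRCm38 chromosome 4, 100095791 to 100444765), a Wnt5a receptor of the tyrosine kinase type, measured 3.14, 2.56 and 2.48 CPM in LTR 1, 2 and 3 and 1.42, 3.2 and 2.59 CPM in NF1 1, 2 and 3. Ror1 in NSC 1, 3 and 5 was at 26.9, 6.3 and 28.2 CPM. NSC 1 and NSC 5 were far above NSC 3, the order of the mural cell and fibroblast markers, whose part in the result was not tested; NSC 3 was still above every tumour library. Ror1 fell in LTR (log2 fold change -2.90 ± 0.57, adjusted p = 0.00574) and in NF1 (-3.09 ± 0.57, adjusted p = 0.00652). Ror2, its paralog, measured 1.30 to 2.42 CPM in LTR, 0 to 0.192 CPM in NF1, and 1.93 to 5.72 CPM in NSC. NF1 lay below NSC and below LTR in every library, and the fall against NSC was called (-5.24 ± 0.92, adjusted p = 0.00536, -6.58 without NF1 2 and -4.51 without NSC 3), while LTR overlapped NSC (-0.93 ± 0.73, adjusted p = 0.342). Ryk, another Wnt receptor and the most abundant of this group that passed in neither, measured 139.9, 127 and 135 CPM in LTR 1, 2 and 3 and 153, 108 and 159 CPM in NF1 1, 2 and 3. Ryk in NSC 1, 3 and 5 was at 124, 138 and 128 CPM. Its groups overlapped, and its differences were 0.04 ± 0.18, adjusted p = 0.872 in LTR and 0.11 ± 0.18, adjusted p = 0.703 in NF1.

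The secreted inhibitors did not move one way: Sfrp1 and Dkk3 fell and Dkk2 rose in both tumour groups. Of 9 genes 6 were tested, with 1 higher and 3 lower in LTR, and 1 higher and 2 lower in NF1. Called inhibitors made up 66.7% in LTR and 50% in NF1, where 35.9% and 23.1% of all genes were called. In LTR the lower inhibitors numbered 5 without NF1 2 or NF1 3, and in NF1 they numbered 1 without NF1 1 and 5 without NF1 2. Sfrp1 (ENSMUSG00000031548, GRCm38 chromosome 8, 23411502 to 23449632), a soluble protein with a Frizzled-type domain that binds Wnts, measured 0.415, 1.64 and 1.19 CPM in LTR 1, 2 and 3 and 4.93, 21.5 and 4.68 CPM in NF1 1, 2 and 3. Sfrp1 in NSC 1, 3 and 5 was at 78, 60.2 and 78.8 CPM. The 3 groups occupied separate ranges, LTR lowest and NSC highest, and NF1 2 was the highest of its group. Sfrp1 fell 67.2-fold in LTR (log2 fold change -6.07 ± 0.77, adjusted p = 0.00128) and 6.97-fold in NF1 (-2.80 ± 0.65, adjusted p = 0.0154, and -3.90 without NF1 2). The Sfrp1 call in NF1 was lost without NF1 1 (adjusted p = 0.0547), with adjusted p 4.75e-05 to 0.0547 over all alternatives.

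Dkk2 (ENSMUSG00000028031, GRCm38 chromosome 3, 132085292 to 132180304), a ligand of Lrp5 and Lrp6 that can block or weakly activate the pathway, measured 12.5, 11.8 and 7.2 CPM in LTR 1, 2 and 3 and 9.91, 1.06 and 9.42 CPM in NF1 1, 2 and 3. Dkk2 in NSC 1, 3 and 5 was at 0.238, 0 and 0.0536 CPM. It was at or near 0 in NSC and present in every tumour library, NF1 2 being the lowest of these. Dkk2 rose in LTR (log2 fold change 6.79 ± 1.21, adjusted p = 0.00399, and 8.63 without NSC 1) and in NF1 (6.16 ± 1.18, adjusted p = 0.00741, and 8.01 without NSC 1). Dkk3 (ENSMUSG00000030772, GRCm38 chromosome 7, 112116017 to 112159057), a divergent family member, measured 0.0296, 0 and 0.0597 CPM in LTR 1, 2 and 3 and 0.0869, 0.224 and 0 CPM in NF1 1, 2 and 3. Dkk3 in NSC 1, 3 and 5 was at 6.38, 11.4 and 7.96 CPM. It had 3 counts over the LTR libraries and 10 over the NF1 libraries, against 1171 over the NSC libraries. Dkk3 was thus 280-fold lower in LTR (exact 95% counting interval 95.4 to 1360), and it fell in NF1 (log2 fold change -6.31 ± 0.92, adjusted p = 0.00261, and -7.42 without NF1 2).

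Frzb, which also binds Wnts and passed in neither comparison, measured 0.0593, 0.496 and 0.209 CPM in LTR 1, 2 and 3 and 0.174, 0.512 and 0.102 CPM in NF1 1, 2 and 3. Frzb in NSC 1, 3 and 5 was at 1.77, 0.505 and 1.93 CPM. NSC 3 lay below NSC 1 and NSC 5 and just below NF1 2, and the differences were -2.47 ± 0.88, adjusted p = 0.0526 in LTR and -2.40 ± 0.87, adjusted p = 0.0746 in NF1. Sfrp2 measured 0.0593 to 0.179 CPM in LTR, 0.137 to 1.76 CPM in NF1, and 0.556 to 1.93 CPM in NSC, and was called lower in LTR (-3.42 ± 1.04, adjusted p = 0.0308). The Sfrp2 call was lost without LTR 1, LTR 2, LTR 3, NSC 3 or NSC 5 (adjusted p 0.0603 to 0.0948), with adjusted p 0.00412 to 0.0948 over all alternatives. Notum, which removes the Wnt lipid, stayed at or below 1.12 CPM, and 38.12% of its exon bases overlap another gene. Dkk1, Wif1 and Sfrp5 were not tested; Sfrp5 had no count over the LTR libraries and 1 over the NF1 libraries, beside 15, 6 and 23 counts in NSC 1, 3 and 5. Per kilobase, Dkk2 made up 70.6% to 90.1% of the summed inhibitor level in LTR and 62.5%, 4.18% and 64.6% in NF1 1, 2 and 3, against at most 0.307% in NSC, where Sfrp1 held 74.5% to 85.2%. The sum itself was 2.75 to 3.94 CPM per kilobase in LTR, 3.93 to 6.82 in NF1, and 18.5 to 22.2 in NSC, without overlap between NSC and either tumour group.

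The ligand-processing genes differed in direction: Porcn was called lower in both tumour groups and Wls higher in LTR. Porcn (ENSMUSG00000031169, GRCm38 chromosome X, 8193848 to 8206525), the acyltransferase, measured 3.88, 2.71 and 2.81 CPM in LTR 1, 2 and 3 and 1.71, 4.0 and 2.29 CPM in NF1 1, 2 and 3. Porcn in NSC 1, 3 and 5 was at 7.99, 6.06 and 7.05 CPM. It was lower than NSC in every tumour library and called lower in LTR (log2 fold change -1.17 ± 0.40, adjusted p = 0.0462) and NF1 (-1.40 ± 0.40, adjusted p = 0.0341). The Porcn call in LTR was lost without LTR 1, LTR 2, LTR 3, NSC 1, NSC 3 or NSC 5 (adjusted p 0.066 to 0.157) and with scaling by library totals or no filter on low counts (adjusted p 0.0509 to 0.0822), with adjusted p 0.00652 to 0.157 over all alternatives. The Porcn call in NF1 was lost without LTR 3, NF1 1, NF1 3, NSC 1 or NSC 5 (adjusted p 0.0578 to 0.116) and with no filter on low counts or a fit of only the 6 libraries compared (adjusted p 0.0518 to 0.0678), with adjusted p 0.000879 to 0.12 over all alternatives. Wls (ENSMUSG00000028173, GRCm38 chromosome 3, 159839672 to 159938664), the carrier of lipid-bearing Wnts, measured 182, 123 and 152 CPM in LTR 1, 2 and 3 and 118, 169 and 150.3 CPM in NF1 1, 2 and 3. Wls in NSC 1, 3 and 5 was at 89.2, 56 and 111 CPM. All tumour libraries lay above all NSC libraries; the rise passed in LTR (log2 fold change 0.83 ± 0.27, adjusted p = 0.0406) and not in NF1 (0.77 ± 0.27, adjusted p = 0.069). The Wls call in LTR was lost without LTR 1, LTR 3 or NSC 1 (adjusted p 0.0591 to 0.115) and with scaling by library totals or a filter of 10 CPM in 3 libraries (adjusted p 0.0641 to 0.0671), with adjusted p 0.0142 to 0.115 over all alternatives.

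Of the R-spondin receptors and the ubiquitin ligases that remove Frizzleds from the surface, Lgr4 fell in both tumour groups and Lgr6 rose in NF1. Lgr6 (ENSMUSG00000042793, GRCm38 chromosome 1, 134983301 to 135105276) measured 68, 46.4 and 68.4 CPM in LTR 1, 2 and 3 and 101, 146 and 50.3 CPM in NF1 1, 2 and 3. Lgr6 in NSC 1, 3 and 5 was at 16.5, 46.9 and 13.9 CPM. NF1 lay above NSC throughout, while LTR 2 lay just below NSC 3. Lgr6 rose in NF1 (log2 fold change 1.94 ± 0.52, adjusted p = 0.0263, and 2.77 without NSC 3) and did not pass in LTR (1.24 ± 0.51, adjusted p = 0.0825). The Lgr6 call in NF1 was lost without NF1 1, NSC 1 or NSC 5 (adjusted p 0.0667 to 0.0969) and with a fit of only the 6 libraries compared (adjusted p = 0.0526), with adjusted p 0.00102 to 0.157 over all alternatives. Lgr4 (ENSMUSG00000050199, GRCm38 chromosome 2, 109917647 to 110014257) measured 12.9, 7.86 and 13.9 CPM in LTR 1, 2 and 3 and 10.3, 8.74 and 9.11 CPM in NF1 1, 2 and 3. Lgr4 in NSC 1, 3 and 5 was at 26.6, 18.3 and 27.9 CPM. No tumour library reached the lowest NSC library, and Lgr4 fell in LTR (log2 fold change -1.07 ± 0.29, adjusted p = 0.0193) and in NF1 (-1.37 ± 0.29, adjusted p = 0.0109). The Lgr4 call in LTR was lost without LTR 2, LTR 3, NSC 1 or NSC 5 (adjusted p 0.0507 to 0.0798), with adjusted p 0.00153 to 0.131 over all alternatives. Znrf3, a ligase that passed in neither, measured 22.4, 17.1 and 27.3 CPM in LTR 1, 2 and 3 and 29.5, 40.3 and 16 CPM in NF1 1, 2 and 3. Znrf3 in NSC 1, 3 and 5 was at 37.5, 41.1 and 34.8 CPM. LTR lay below NSC and NF1 2 within it, with differences of -0.77 ± 0.32, adjusted p = 0.0911 in LTR and -0.40 ± 0.32, adjusted p = 0.383 in NF1. Rnf43 measured 0.153 to 0.388 CPM in LTR, 0 to 0.544 CPM in NF1, and 0.957 to 2.67 CPM in NSC; it did not overlap NSC and did not pass. Lgr5, a marker of intestinal stem cells, stayed at or below 0.205 CPM and was not tested.

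Of β-catenin and its destruction complex, Apc and Axin2 fell in both tumour groups, β-catenin fell in LTR, and Axin1 rose in LTR. Axin2 (ENSMUSG00000000142, GRCm38 chromosome 11, 108920349 to 108950783), the feedback inhibitor whose gene is a widely used readout of β-catenin activity, measured 1.66, 1.98 and 3.19 CPM in LTR 1, 2 and 3 and 5.39, 14.6 and 1.2 CPM in NF1 1, 2 and 3. Axin2 in NSC 1, 3 and 5 was at 41.9, 23.7 and 46.2 CPM. All tumour libraries lay below all NSC libraries, with NF1 2 nearest to them, and within NSC the level was lowest in NSC 3, which also had the least of the mural cell and fibroblast markers (their part in the result was not tested). Axin2 fell 16.3-fold in LTR (log2 fold change -4.03 ± 0.79, adjusted p = 0.00566) and 5.28-fold in NF1 (-2.40 ± 0.73, adjusted p = 0.0417, and -3.48 without NF1 2). The Axin2 call in NF1 was lost without LTR 1, LTR 2, LTR 3, NF1 1, NSC 1 or NSC 5 (adjusted p 0.0523 to 0.127) and with a fit of only the 6 libraries compared (adjusted p = 0.0796), with adjusted p 0.00176 to 0.127 over all alternatives. Axin1 (ENSMUSG00000024182, GRCm38 chromosome 17, 26138688 to 26195811), the scaffold of the complex, measured 80.4, 82.7 and 83.3 CPM in LTR 1, 2 and 3 and 80.4, 62.3 and 58.4 CPM in NF1 1, 2 and 3. Axin1 in NSC 1, 3 and 5 was at 49.4, 50.4 and 51 CPM. Every tumour library was above NSC, where the 3 libraries lay within 2 CPM of each other. Axin1 rose in LTR (log2 fold change 0.71 ± 0.17, adjusted p = 0.0124) and did not pass in NF1 (0.42 ± 0.17, adjusted p = 0.105). The Axin1 call in LTR was lost without NSC 1 (adjusted p = 0.0544), with adjusted p 0.000299 to 0.0821 over all alternatives.

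Apc (ENSMUSG00000005871, GRCm38 chromosome 18, 34220924 to 34322552), the tumour suppressor of the complex, measured 123, 87.2 and 103 CPM in LTR 1, 2 and 3 and 117, 205 and 80.3 CPM in NF1 1, 2 and 3. Apc in NSC 1, 3 and 5 was at 345, 344 and 315 CPM. It was lower in all tumour libraries, NF1 2 being the highest of these, and fell in LTR (log2 fold change -1.68 ± 0.32, adjusted p = 0.00488) and in NF1 (-1.32 ± 0.31, adjusted p = 0.0172). The Apc call in NF1 was lost without NF1 1 or NSC 1 (adjusted p 0.0549 to 0.0687), with adjusted p 0.000354 to 0.0687 over all alternatives. Ctnnb1 (ENSMUSG00000006932, GRCm38 chromosome 9, 120929216 to 120960507), which encodes β-catenin, measured 844, 631 and 759 CPM in LTR 1, 2 and 3 and 780.1, 1076 and 691 CPM in NF1 1, 2 and 3. Ctnnb1 in NSC 1, 3 and 5 was at 1204, 1185 and 1155 CPM. NSC was the highest group without overlap, and the fall passed narrowly in LTR (log2 fold change -0.67 ± 0.22, adjusted p = 0.0442) and not in NF1 (-0.48 ± 0.22, adjusted p = 0.149). The Ctnnb1 call in LTR was lost without LTR 1, LTR 2, LTR 3, NF1 1, NSC 1, NSC 3 or NSC 5 (adjusted p 0.0647 to 0.174) and with scaling by library totals or no filter on low counts (adjusted p 0.0514 to 0.0756), with adjusted p 0.00662 to 0.174 over all alternatives. Of its exon bases 15.06% overlap another gene. RNA counts do not measure β-catenin protein or its place in the cell.

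The 4 TCF/LEF factors, which carry β-catenin to DNA, changed in opposite directions. Tcf7l2 (ENSMUSG00000024985, GRCm38 chromosome 19, 55741820 to 55933654) measured 15.2, 9.46 and 13.5 CPM in LTR 1, 2 and 3 and 14.4, 16.8 and 13.2 CPM in NF1 1, 2 and 3. Tcf7l2 in NSC 1, 3 and 5 was at 46.9, 36.8 and 45.8 CPM. It was lower in every tumour library and fell in LTR (log2 fold change -1.76 ± 0.24, adjusted p = 0.00153) and in NF1 (-1.54 ± 0.24, adjusted p = 0.00333). Tcf7l1 (ENSMUSG00000055799, GRCm38 chromosome 6, 72626378 to 72789254), the family's main repressor, measured 6.46, 10.2 and 10.00 CPM in LTR 1, 2 and 3 and 11.4, 6.05 and 10.2 CPM in NF1 1, 2 and 3. Tcf7l1 in NSC 1, 3 and 5 was at 25.3, 13.4 and 26.4 CPM. NSC 3 lay well below NSC 1 and NSC 5 but above all tumour libraries, and Tcf7l1 fell in LTR (-1.29 ± 0.37, adjusted p = 0.0239) and in NF1 (-1.23 ± 0.37, adjusted p = 0.0388). The Tcf7l1 call in LTR was lost without LTR 1, LTR 2, LTR 3, NSC 1 or NSC 5 (adjusted p 0.0681 to 0.0855), with adjusted p 0.00143 to 0.196 over all alternatives. The Tcf7l1 call in NF1 was lost without LTR 2, LTR 3, NF1 1, NF1 3, NSC 1 or NSC 5 (adjusted p 0.0671 to 0.131) and with a fit of only the 6 libraries compared (adjusted p = 0.0937), with adjusted p 0.00759 to 0.21 over all alternatives. Tcf7 (ENSMUSG00000000782, GRCm38 chromosome 11, 52252371 to 52283014), a factor best known from T cells, measured 29.2, 33.3 and 33.4 CPM in LTR 1, 2 and 3 and 25.8, 18 and 20.8 CPM in NF1 1, 2 and 3. Tcf7 in NSC 1, 3 and 5 was at 11.3, 18.6 and 10.7 CPM. LTR lay above NSC, and NF1 2 was just under NSC 3. Tcf7 rose in LTR (log2 fold change 1.23 ± 0.27, adjusted p = 0.00825) and did not pass in NF1 (0.66 ± 0.26, adjusted p = 0.0967). Lef1 was scarce, at 0.877 to 1.46 CPM in LTR, 0.273 to 0.992 CPM in NF1, and 0.106 to 0.199 CPM in NSC, and rose in both (LTR 2.82 ± 0.60, adjusted p = 0.00758; NF1 1.97 ± 0.59, adjusted p = 0.0396); 13.75% of its exon bases overlap another gene. The Lef1 call in NF1 was lost without LTR 1, LTR 3, NF1 1, NF1 2, NSC 1, NSC 3 or NSC 5 (adjusted p 0.0506 to 0.145) and with no filter on low counts, limma-voom or both NF1 2 and NSC 3 left out (adjusted p 0.0568 to 0.071), with adjusted p 0.0208 to 0.219 over all alternatives. Per kilobase, Tcf7 made up 74.9% to 77.1% of the TCF/LEF sum in LTR, 65.7% to 68.1% in NF1, and 26.8%, 48.2% and 25.5% in NSC 1, 3 and 5.

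The 250 bases before the annotated start are shown for 3 members, chosen as examples of those called lower in both tumour groups. They are the feedback target Axin2, the receptor Fzd7 and the ligand Wnt7a. The sequences are given 5′ to 3′ on the strand of the gene, from RefSeq on GRCm38.p6. They lie at chr11:108920099-108920348 (plus strand), chr1:59481897-59482146 (plus strand) and chr6:91411354-91411603 (minus strand). The starts used are those of RefSeq. For Fzd7 and Wnt7a they differ from the gene starts in GENCODE M21, the source of the gene coordinates given above. Capitals mark a match to a TCF/LEF motif, searched on both strands as CTTTGAA, with CTTTGAT as a variant, CTTTGTA as another variant and CTTTGTT as the last variant; these do not overlap each other.
Axin2: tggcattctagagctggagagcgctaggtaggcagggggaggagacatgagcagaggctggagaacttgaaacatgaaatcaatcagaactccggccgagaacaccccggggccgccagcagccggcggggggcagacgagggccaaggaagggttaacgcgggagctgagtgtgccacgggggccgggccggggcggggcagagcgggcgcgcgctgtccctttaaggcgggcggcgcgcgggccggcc
Fzd7: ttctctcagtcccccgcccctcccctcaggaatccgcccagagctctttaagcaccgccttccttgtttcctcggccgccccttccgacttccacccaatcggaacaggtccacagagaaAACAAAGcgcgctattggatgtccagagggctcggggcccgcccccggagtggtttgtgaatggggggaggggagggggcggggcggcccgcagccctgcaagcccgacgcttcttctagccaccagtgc
Wnt7a: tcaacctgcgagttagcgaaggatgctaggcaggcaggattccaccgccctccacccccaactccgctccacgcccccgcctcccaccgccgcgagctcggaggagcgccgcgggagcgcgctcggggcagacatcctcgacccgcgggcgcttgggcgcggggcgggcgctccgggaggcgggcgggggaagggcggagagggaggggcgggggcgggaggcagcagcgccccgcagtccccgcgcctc
Fzd7 held 1 match and Axin2 and Wnt7a none, which says only that these letters are not in those windows. RefSeq windows were found for 40 of the 58 members, 50 windows in all. Of these 50 windows 6 had a match, each in another member (Dkk1, Fzd7, Lef1, Tcf7l2, Wnt11 and Wnt5b). Over all 32851 windows 14.8% had one, so the member windows did not stand out. All 3 windows printed were rich in CpG, with 24 in Axin2, 17 in Fzd7 and 34 in Wnt7a; the median was 18.5 over the member windows and 6 over all windows.

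Within NF1, NF1 2 was the highest library for 31 of the 42 tested members (73.8%), where it was the highest for 48.4% of all genes tested. NF1 2 was the NF1 library nearest to NSC on the log2(CPM + 0.1) scale for 26 of the 42 (61.9%), against 54.2% of all genes. Among the 24 members that fell in LTR, a set chosen by its fall, the number was 20 (83.3%). The share among all genes that fell in LTR was not computed, so this value has no like background. Without NF1 2, the lower members numbered 27 in NF1 and 29 in LTR, against 17 and 24 with it. The genes called over all genes tested rose as well, from 3631 to 6900 in NF1 and from 5634 to 7640 in LTR. The gain in calls was thus not particular to the members. Frzb, Sfrp2, Ctnnb1, Fzd10, Fzd3, Fzd5, Fzd8, Wnt5a, Rnf43 and Tcf7 did not pass in NF1 with all libraries and passed without NF1 2, with adjusted p 0.000828 to 0.0428. NF1 2 also held the highest levels of the endothelial marker Flt1, at 155 CPM, and of Nes, at 2433 CPM, and whether its marker levels have a part in the results was not tested.

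NF1 was set directly against LTR. No member passed the edgeR test and neither did any of the 15696 genes (0%), while 8 members had an unadjusted p under 0.05: Wnt5a, Fzd3, Fzd5, Fzd8, Sfrp1, Sfrp2 and Axin2, higher in NF1, and Ror2, lower in NF1. Over all genes, 10.2% had an unadjusted p under 0.05, against 19% of the members. DESeq2 called 3 of them, with log2 fold changes of -4.42 for Ror2 (adjusted p = 7.3e-05), 3.2 for Sfrp1 (adjusted p = 0.000138) and 1.04 for Fzd5 (adjusted p = 0.039), and 330 of all genes. In edgeR, Ror2 differed by -4.31 ± 0.90, adjusted p = 0.22 (adjusted p 7.3e-05 to 0.581 over the alternatives) and Sfrp1 by 3.27 ± 0.69, adjusted p = 0.22 (range 0.000138 to 0.635). The NF1 libraries all lay above the LTR libraries for Sfrp1, Fzd5 and Fzd7 and all below for Ror2, Axin1 and Tcf7. These 6 of 42 members stand beside 12.5% of all genes (7.21% above and 5.24% below). The median log2 fold change of the members was 0.18, or 0.20 with genes that had no count in a group set at their bound, against 0.06 over all genes. The members called lower in LTR but not in NF1 were therefore not shown to differ between the tumour groups by edgeR.

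Outside the receptor and ligand families, the planar cell polarity genes were called in 1 direction only. Of 15 tested (16 in the list), 9 were lower and none higher in LTR (median log2 fold change -1.47), and 7 were lower and none higher in NF1 (median -1.23). The lower ones were thus 60% in LTR and 46.7% in NF1, where 20.9% and 13.1% of all genes were lower. In NF1 the lower ones numbered 3 without NF1 1, 4 without NSC 1 or NSC 5 and 11 without NF1 2. Daam2, a formin that works with Dishevelled, measured 0.534, 0.687 and 0.597 CPM in LTR 1, 2 and 3 and 0.696, 1.7 and 0.239 CPM in NF1 1, 2 and 3. Daam2 in NSC 1, 3 and 5 was at 114, 57.1 and 99.7 CPM. It was nearly lost in all tumour libraries and fell in LTR (log2 fold change -7.22 ± 0.66, adjusted p = 0.000425) and in NF1 (-6.68 ± 0.64, adjusted p = 0.00067, and -7.54 without NF1 2). Vangl2, a core polarity protein, fell in LTR (-1.47 ± 0.20, adjusted p = 0.00162) and in NF1 (-1.33 ± 0.20, adjusted p = 0.00319). Prickle2 (-4.59 ± 0.64, adjusted p = 0.00166), Celsr2 (-2.70 ± 0.50, adjusted p = 0.00442) and Daam1 (-1.26 ± 0.24, adjusted p = 0.00551) also fell in LTR, and all 3 fell in NF1 (Prickle2 -2.16 ± 0.57, adjusted p = 0.0257, and -3.04 without NF1 2; Celsr2 -2.14 ± 0.49, adjusted p = 0.0143, and -2.82 without NF1 2; Daam1 -1.17 ± 0.24, adjusted p = 0.0101). The Prickle2 call in NF1 was lost without NF1 1, NF1 3, NSC 1 or NSC 5 (adjusted p 0.0559 to 0.088), with adjusted p 0.00049 to 0.088 over all alternatives. The Celsr2 call in NF1 was lost without NF1 1 (adjusted p = 0.0593), with adjusted p 6.34e-05 to 0.068 over all alternatives.

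Of 14 tested extracellular regulators (22 in the list), 3 were higher and 7 lower in LTR (median -1.72), and 2 were higher and 5 lower in NF1 (median -0.75). Called genes made up 71.4% in LTR and 50% in NF1, where 35.9% and 23.1% of all genes were called. In LTR the lower ones numbered 3 without LTR 3 and 4 without LTR 1; in NF1 they numbered 8 without NF1 2, and the higher ones numbered 1 without LTR 3, NF1 1, NF1 3, NSC 1, NSC 3 or NSC 5. Adgra2, known as Gpr124, a co-activator that makes cells respond to Wnt7a and Wnt7b together with Reck, measured 71.2, 67.9 and 49.5 CPM in LTR 1, 2 and 3 and 52.1, 26.7 and 41.5 CPM in NF1 1, 2 and 3. Adgra2 in NSC 1, 3 and 5 was at 3.73, 4.75 and 3.25 CPM. Its tumour levels all lay above NSC, and it rose 16-fold in LTR (log2 fold change 4.0 ± 0.32, adjusted p = 0.000238) and 10.2-fold in NF1 (3.36 ± 0.31, adjusted p = 0.000509). Reck itself, named after its values were seen, measured 1.72, 0.877 and 1.88 CPM in LTR 1, 2 and 3 and 1.3, 2.05 and 1.47 CPM in NF1 1, 2 and 3. Reck in NSC 1, 3 and 5 was at 9.48, 1.99 and 7.51 CPM. NSC 3 lay far below NSC 1 and NSC 5, as it did for the mural cell and fibroblast markers, whose part in the result was not tested; every LTR library was below it and NF1 2 just above it. Reck was called lower in LTR (-2.08 ± 0.60, adjusted p = 0.0245) and NF1 (-1.97 ± 0.59, adjusted p = 0.0407). The Reck call in LTR was lost without LTR 1, LTR 2, LTR 3, NSC 1 or NSC 5 (adjusted p 0.0578 to 0.0967) and with limma-voom (adjusted p = 0.0718), with adjusted p 0.00106 to 0.163 over all alternatives. The Reck call in NF1 was lost without LTR 1, LTR 3, NF1 1, NF1 3, NSC 1 or NSC 5 (adjusted p 0.0577 to 0.152) and with limma-voom or a fit of only the 6 libraries compared (adjusted p 0.077 to 0.102), with adjusted p 0.00203 to 0.266 over all alternatives. Among the glypicans, heparan sulfate carriers that hold Wnts, Gpc4 fell in LTR (-4.17 ± 0.54, adjusted p = 0.00131) and NF1 (-3.98 ± 0.53, adjusted p = 0.002, and -4.58 without NF1 2), and so did Gpc6 (LTR -1.97 ± 0.22, adjusted p = 0.000871; NF1 -1.81 ± 0.22, adjusted p = 0.00146). Gpc4 had 20.9 to 29.0 CPM in LTR, 17.9 to 46.8 CPM in NF1, and 528, 188 and 597 CPM in NSC 1, 3 and 5, the order of the mural cell and fibroblast markers, whose part in the result was not tested. Sostdc1, an inhibitor of Wnt and BMP signals, had no count over the LTR or NF1 libraries and 257 over the NSC libraries, which makes it at least 61.3-fold lower in LTR and at least 62.4-fold lower in NF1.

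All 28 genes of signal transduction were tested; 3 were higher and 8 lower in LTR (median -0.31), and 2 were higher and 5 lower in NF1 (median -0.08). These shares, 39.3% and 25%, are near those of all genes. In LTR the lower genes numbered 5 without LTR 3 and the higher ones numbered 1 without NSC 1 or NSC 5; in NF1 the lower genes numbered 2 without NF1 1, 3 without NSC 1 or NSC 5 and 9 without NF1 2 and the higher ones numbered 0 without NF1 1, NSC 1 or NSC 5 and 1 without NF1 3. The corepressors Tle4 and Tle3, which TCF factors recruit, fell in LTR (Tle4 -2.85 ± 0.33, adjusted p = 0.000965; Tle3 -2.19 ± 0.31, adjusted p = 0.0017) and in NF1 (Tle4 -1.45 ± 0.31, adjusted p = 0.0119; Tle3 -1.74 ± 0.31, adjusted p = 0.00524). The Tle4 call in NF1 was lost without NF1 1 (adjusted p = 0.051), with adjusted p 8.15e-05 to 0.051 over all alternatives. Gsk3b, a kinase of the destruction complex, fell in LTR (-1.43 ± 0.29, adjusted p = 0.00618) and in NF1 (-0.99 ± 0.28, adjusted p = 0.0333). The Gsk3b call in NF1 was lost without LTR 3, NF1 1, NF1 3, NSC 1, NSC 3 or NSC 5 (adjusted p 0.0532 to 0.117) and with a fit of only the 6 libraries compared (adjusted p = 0.0555), with adjusted p 0.00171 to 0.117 over all alternatives. The β-catenin cofactor Bcl9l (LTR -1.49 ± 0.32, adjusted p = 0.00802; NF1 -1.26 ± 0.32, adjusted p = 0.0215) and the β-catenin inhibitor Ctnnbip1 (LTR -1.42 ± 0.30, adjusted p = 0.00803; NF1 -1.90 ± 0.31, adjusted p = 0.00383) fell in both. The Bcl9l call in NF1 was lost without NF1 1, NSC 1 or NSC 5 (adjusted p 0.0554 to 0.0742), with adjusted p 0.000938 to 0.0742 over all alternatives. The Ctnnbip1 call in LTR was lost without LTR 3 (adjusted p = 0.0513), with adjusted p 0.000335 to 0.066 over all alternatives.

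Genes known as Wnt targets in various tissues were called in both directions. Of 19 tested (24 in the list), 2 were higher and 8 lower in LTR (median -1.04), and 2 were higher and 4 lower in NF1 (median -0.62). Called targets made up 52.6% in LTR and 31.6% in NF1, where 35.9% and 23.1% of all genes were called. In LTR the lower targets numbered 4 without LTR 1 or LTR 2 and 5 without LTR 3, NSC 1 or NSC 5, and in NF1 they numbered 2 without NSC 1 and 8 without NF1 2. The 2 that rose in both were Fosl1, a subunit of AP-1 (LTR 2.14 ± 0.31, adjusted p = 0.00182; NF1 2.49 ± 0.32, adjusted p = 0.00172), and Myc (LTR 1.49 ± 0.23, adjusted p = 0.00218; NF1 1.08 ± 0.22, adjusted p = 0.01). Myc measured 92.3, 109 and 105 CPM in LTR 1, 2 and 3 and 71.9, 56.8 and 103 CPM in NF1 1, 2 and 3. Myc in NSC 1, 3 and 5 was at 37.5, 34.7 and 37.3 CPM, with every tumour library above NSC. Ephb2, a receptor of ephrins, fell in LTR (-4.02 ± 0.51, adjusted p = 0.00128) and in NF1 (-2.87 ± 0.48, adjusted p = 0.00447, and -3.52 without NF1 2). Wisp2, a matrix-associated protein, measured 0.0593, 0.0382 and 0.0299 CPM in LTR 1, 2 and 3 and 0.058, 0.032 and 0.205 CPM in NF1 1, 2 and 3. Wisp2 in NSC 1, 3 and 5 was at 11.7, 0.433 and 17.3 CPM. Its NSC values followed the order of the mural cell and fibroblast markers, whose part in the result was not tested, and it was called lower in LTR (-7.73 ± 1.39, adjusted p = 0.00415, and -7.04 without NSC 5) and in NF1 (-6.62 ± 1.29, adjusted p = 0.00781, -7.65 without NF1 3 and -5.92 without NSC 5). The Wisp2 call in LTR was lost with limma-voom (adjusted p = 0.067), with adjusted p 6.89e-09 to 0.067 over all alternatives. The Wisp2 call in NF1 was lost with limma-voom (adjusted p = 0.0935), with adjusted p 6.19e-08 to 0.105 over all alternatives.

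**Figure D4:**
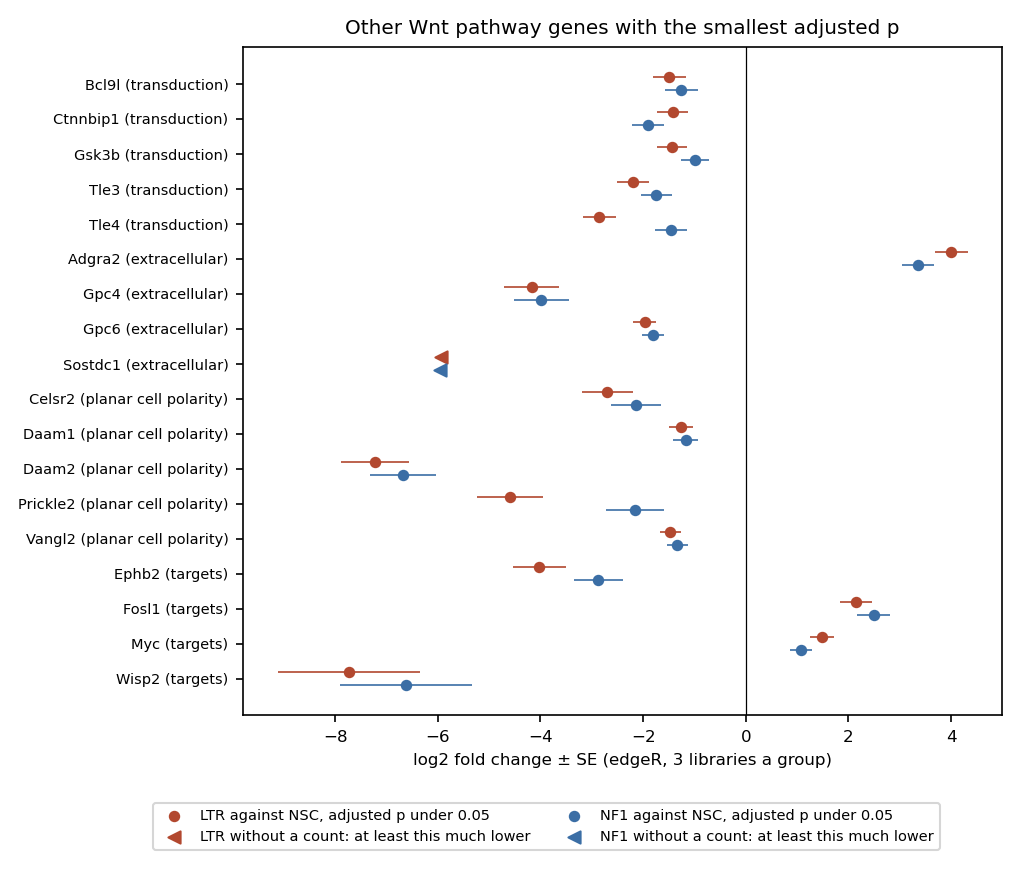
log2 fold change (x axis, ± SE, 3 libraries a group) of the pathway genes outside the 58 members with the smallest adjusted p of their list, for LTR against NSC (red) and NF1 against NSC (blue). Triangles mark Sostdc1, which had no count in either tumour group and is drawn at its lower bound. Adgra2, Fosl1 and Myc lie right of 0 and the others left of it.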

How the data were processed

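RNA of 9 cultures, 3 in each of 3 groups, was sequenced after NEBNext Ultra RNA library preparation, according to the protocols in the labels. The authors deposited unnormalized read counts for each gene; the tools STAR 2.5.2a, HTSeq and DESeq2 1.8.2 and the build GRCm38 (mm10) are named, without settings, per the submitters' processing notes. The strand setting of the counting is not stated, so exon overlaps are given beside the genes they touch.

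All 47729 rows were analysed by identifier in R 4.3.3. One edgeR 4.0.16 quasi-likelihood model of the 3 groups used TMM factors; filterByExpr at a minimum count of 10 kept 15696 genes, and p-values were adjusted by Benjamini-Hochberg over all of them (threshold 0.05). The p-values measure the spread between cultures within groups, estimated over all 9 libraries together. Each p therefore also rests on the group that is not compared. The labels do not say whether the cultures of a group were transformed separately. A prior count of 0.125 enters each fitted fold change, and exon lengths are from GENCODE M21 (GRCm38), which holds all 58 members. Libraries of a group differed by more than sampling noise (chi-square per degree of freedom 14.45 to 436.3).

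Members and lists were chosen with earlier results of these data known. Values in every library are given for called members of at least 5 CPM in a group, and for the most abundant uncalled member of a role; up to 4 genes per further list and comparison are named by adjusted p. Alternatives were DESeq2 1.42.0, limma-voom (limma 3.58.1), other scalings and filters, a replicate block, only the 6 libraries compared, and leaving out libraries. The fit was tested on simulated data. A p that misses the threshold does not show that groups did not differ.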

Additional observations from a re-analysis of the deposited data

How the results depend on the processing

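No called result of a member changed sign under any alternative run. Over the named genes and comparisons, 1593 results kept their side of the threshold when the processing was changed (or NF1 2 and NSC 3 left out together), 66 lost a call and 53 gained one. Leaving out single libraries gave 1607, 145 and 30.

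Counts that moved by over 1.5 times follow. A filter of 10 CPM in 3 libraries, which tests fewer genes, gave 2 higher members in LTR, 2 higher and 10 lower in NF1, and 2103 genes called in NF1. DESeq2 gave 8 higher members in LTR, and in NF1 against LTR 2 higher and 1 lower member and 330 genes. A fit of only the 6 libraries compared gave 2 higher members in NF1. Without a filter, NF1 against LTR had 1 higher member and 52 genes, and limma-voom called 1 gene there. Without both NF1 2 and NSC 3, NF1 had 26 lower members and 7485 genes, and NF1 against LTR 1 lower member and 104 genes. Apart from what is named, the cause was not tested.

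With single libraries left out, higher members ranged from 3 to 7 in LTR and 1 to 5 in NF1, and lower members from 15 to 29 and 8 to 27. All genes called ranged from 3281 to 7640 in LTR, 1752 to 6900 in NF1, and 0 to 34 in NF1 against LTR.

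The labels do not say whether equal replicate numbers share an animal or a day. Deviations of same-numbered libraries correlated at -0.234 to 0.122, and those of other pairs at -0.169 to 0.253. Each deviation is from a mean of 3 libraries, so these values cannot settle whether the numbers pair the samples. With the replicate number as a block, higher members numbered 1 in LTR and 1 in NF1, lower members 16 and 8, and genes called 3477 and 1942. The block took the call from 37 gene results, and the lists of lost calls above leave it out. Among these were Tcf7 and Lef1 in LTR (edgeR adjusted p 0.0592 and 0.0631) and Ror1 and Lgr4 in NF1 (0.0573 and 0.092). Wnt4 lost its call in LTR (0.0788) and in NF1 (0.0715). Depth limits members near 3 counts.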

Other observations

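Further pathway genes that passed were chosen after their values were seen. Apcdd1, a membrane inhibitor of Wnt signals, measured 100.1, 41.2 and 38.1 CPM in LTR 1, 2 and 3 and 44.8, 6.31 and 19.1 CPM in NF1 1, 2 and 3. Apcdd1 in NSC 1, 3 and 5 was at 5.5, 2.33 and 6.46 CPM. NF1 2 lay just under the highest NSC library and every other tumour library well above NSC, and Apcdd1 was called higher in LTR (log2 fold change 3.65 ± 0.74, adjusted p = 0.00659) and in NF1 (2.30 ± 0.70, adjusted p = 0.0431) by edgeR. The Apcdd1 call in NF1 was lost without LTR 3, NF1 1, NF1 3, NSC 1, NSC 3 or NSC 5 (adjusted p 0.0507 to 0.16) and with scaling by library totals, a filter of 10 CPM in 3 libraries, limma-voom or a fit of only the 6 libraries compared (adjusted p 0.0549 to 0.0867), with adjusted p 0.00359 to 0.16 over all alternatives. Nkd1, a feedback inhibitor that binds Dishevelled, measured 0.119, 0.114 and 0.179 CPM in LTR 1, 2 and 3 and 0.203, 1.31 and 0.171 CPM in NF1 1, 2 and 3. Nkd1 in NSC 1, 3 and 5 was at 2.41, 4.95 and 1.66 CPM. It lay below NSC in every tumour library and fell in LTR (-4.41 ± 0.91, adjusted p = 0.00701, and -3.72 without NSC 3), and it did not pass in NF1 (-2.42 ± 0.81, adjusted p = 0.0574); without NF1 2 it did (-3.97, adjusted p = 0.00177, with 0.00159 to 0.159 over the alternatives). Ccnd1, the gene of cyclin D1, measured 1048, 701 and 1124 CPM in LTR 1, 2 and 3 and 1195, 2259 and 880.0 CPM in NF1 1, 2 and 3. Ccnd1 in NSC 1, 3 and 5 was at 2135, 3057 and 2080 CPM. LTR, NF1 1 and NF1 3 lay below NSC and NF1 2 lay within it, with a fall called in LTR (-1.34 ± 0.37, adjusted p = 0.0217) and none in NF1 (-0.75 ± 0.37, adjusted p = 0.166), where it passed without NF1 2 (-1.21, adjusted p = 0.0108, with 0.0108 to 0.372 over the alternatives). The Ccnd1 call in LTR was lost without LTR 1, LTR 2, LTR 3 or NSC 3 (adjusted p 0.052 to 0.082), with adjusted p 0.00166 to 0.082 over all alternatives. Tnfrsf19, a receptor also known as Troy, measured 3.79, 4.54 and 9.79 CPM in LTR 1, 2 and 3 and 10.5, 41.9 and 5.97 CPM in NF1 1, 2 and 3. Tnfrsf19 in NSC 1, 3 and 5 was at 31.5, 25.8 and 32.6 CPM. NF1 2 was the highest of all 9 libraries, and the fall was called in LTR (-2.31 ± 0.68, adjusted p = 0.0269) and not in NF1 (-0.62 ± 0.65, adjusted p = 0.508), where it passed without NF1 2 (-1.85, adjusted p = 0.00914, with 0.00914 to 0.808 over the alternatives). The Tnfrsf19 call in LTR was lost without LTR 1, LTR 2, NSC 1 or NSC 5 (adjusted p 0.0655 to 0.0895), with adjusted p 0.00138 to 0.0895 over all alternatives. Bambi, which acts on TGF-β and Wnt receptors, had 7.8, 20.3 and 13.3 CPM in LTR 1, 2 and 3 and 10.6, 9.73 and 13 CPM in NF1 1, 2 and 3. Bambi in NSC 1, 3 and 5 was at 40.5, 34.7 and 39.2 CPM. It was lower in every tumour library and fell in LTR (-1.47 ± 0.33, adjusted p = 0.00942) and NF1 (-1.78 ± 0.33, adjusted p = 0.00653). The Bambi call in LTR was lost without LTR 3 (adjusted p = 0.0526), with adjusted p 0.00038 to 0.0526 over all alternatives.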
